A study of Rattus norvegicus with 8 samples.

Results

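Hippocampal excitatory neurons form a chain of fields: the granule neurons of the dentate gyrus send mossy fibres to the pyramidal neurons of CA3, which project to those of CA1, with the small field CA2 between them. Each field keeps its own set of transcription factors, channels and calcium-handling proteins, so the transcripts of a few genes report on particular fields even in RNA from the whole structure. The 7 genes described here are Wfs1, which marks CA1 pyramidal neurons in rodents, Pcp4, which is strong in CA2 and in dentate granule neurons, Prox1 and Trpc6, which mark dentate granule neurons, and Neurod1, Neurod2 and Neurod6, basic helix-loop-helix (bHLH) transcription factors of excitatory forebrain neurons. They were picked by name, with the difference between the diet groups on these arrays already known. That difference is therefore given for each of them as a description, and no test of it is read. The array named 12206 genes in all, and each of the 7 genes had exactly 1 probe, printed as a single spot.

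Each array held RNA from the hippocampus of 1 male Wistar rat. The CCH group, 4 rats, ate CE-2 feed containing 0.1% coral calcium hydride (CCH), a coral calcium powder that holds hydrogen, and the control group, also 4 rats, ate CE-2 alone. The rats were 6 weeks old when assigned to the diets and 8 weeks old when killed. The series asks how CCH feeding changes hippocampal gene expression in relation to antioxidant ability.

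The arrays are 1-colour Agilent rat arrays, and every level below is the background-subtracted signal divided by that array's 75th percentile, which ran from 642 to 882 on CCH arrays and from 563 to 700 on control arrays. Differences are CCH minus control on the log2 scale. Between 76.3% and 79.9% of spots stood well above background and 0 were saturated, and the number of arrays limits the precision. The CCH arrays lay on 1 slide with 1 scan and the control arrays on another, so an effect of diet and one of slide or scan cannot be told apart below. Levels of single genes on different probes are not on a common scale and are not set against each other. Where a list's summed level is given, its brightest probes weigh most, whereas in the mean of its log2 levels each gene weighs the same. The tissue label was checked against markers of the hippocampal fields and of excitatory neurons: 29 of them were tested, and each was well above background on all 8 arrays. Cacng5 of the CA2 list, Iyd of the CA3 list and Tdo2 of the dentate list were well above background on 2, 1 and 3 arrays and were not tested.

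Wfs1 encodes wolframin, a glycoprotein of the endoplasmic reticulum membrane that takes part in calcium storage and in the response to misfolded proteins. Its transcript was higher on average in CCH rats than in control rats. The Wfs1 signal was 5.85, 4.66, 5.09 and 5.91 times the 75th percentile in CCH rats 1 to 4, against 4.05, 3.99, 3.99 and 2.64 times in control rats 1 to 4. Every CCH rat lay above every control rat, and control rat 4 lay well below the other control rats, which were nearly level with each other. On the log2 scale Wfs1 averaged 2.42 ± 0.17 in CCH rats and 1.85 ± 0.30 in control rats (SD, n = 4 each), a difference of 0.57 ± 0.16 (SE), or 1.48-fold. Without control rat 4 the difference was 0.42. In RNA from a whole structure, more cells of a type and more RNA per cell cannot be told apart.

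The stretch before the Wfs1 start site is shown with its single E-box in capitals, because the E-box, any CANNTG, is the sequence to which bHLH factors such as the NEUROD proteins bind. It covers the 250 bases before the start on GRCr8, at chr14:78034955-78035204 on the plus strand, comes from RefSeq and is written 5′ to 3′.
Wfs1: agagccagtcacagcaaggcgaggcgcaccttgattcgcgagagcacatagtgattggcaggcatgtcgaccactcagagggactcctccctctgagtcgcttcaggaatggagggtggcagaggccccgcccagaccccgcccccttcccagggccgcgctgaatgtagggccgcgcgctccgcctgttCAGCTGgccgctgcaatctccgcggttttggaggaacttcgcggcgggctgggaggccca
This E-box is CAGCTG and begins 60 bases before the start. Of 33469 rat promoter windows of the same length, 65.5% held some CANNTG and 4007 held CAGCTG on either strand. A match describes the letters only.

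**Figure D1:**
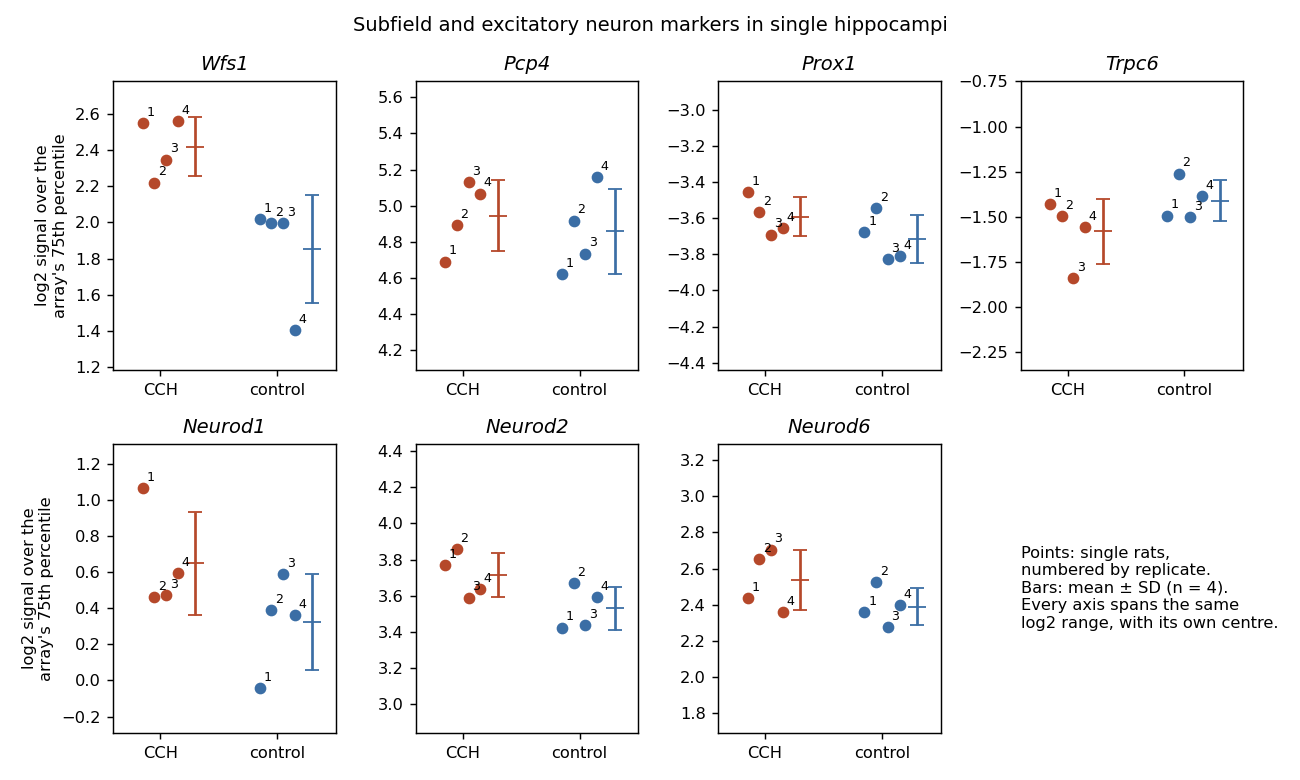
Log2 signal over the array's 75th percentile of Wfs1, Pcp4, Prox1, Trpc6, Neurod1, Neurod2 and Neurod6 in each rat, with CCH left of control. Points are single rats numbered by replicate, bars are the mean ± SD (n = 4), and every axis spans the same log2 range with its own centre. In the Wfs1 panel every CCH rat lies above every control rat, and in the other 6 panels the groups overlap.

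Pcp4 encodes a small IQ-motif protein, also called PEP-19, that binds calmodulin and speeds its exchange of calcium. Pcp4 read 25.8, 29.7, 35.0 and 33.5 times the 75th percentile in CCH rats and 24.6, 30.2, 26.6 and 35.7 times in control rats. The groups overlapped throughout, with the single highest value in a control rat. Its log2 mean was 4.95 ± 0.20 in CCH rats and 4.86 ± 0.23 in control rats (SD, n = 4 each), a difference of 0.09 ± 0.15 (SE) that came to 0.01 without control rat 1 and 0.19 without control rat 4.

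Prox1 is a homeobox transcription factor that specifies granule neurons and, in mice, keeps them from taking on a CA3 identity. Its probe was dim, with a processed signal between 41.5 and 80.4 over the 8 arrays, though well above background on each. Prox1 read 0.0912, 0.0845, 0.0774 and 0.0792 times the 75th percentile in CCH rats and 0.0782, 0.0856, 0.0704 and 0.0712 times in control rats. CCH rat 1 was the highest, and control rats 1 and 2 lay among the CCH rats. The log2 difference was 0.12 ± 0.10 (SE), and its sign was the other way, at −0.03, when background was corrected by the normexp model in place of the scanner's own subtraction.

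Trpc6 encodes a cation channel of the plasma membrane that opens on diacylglycerol after receptor activation and admits calcium. It was the single gene of the 7 with a lower mean in CCH rats, at 0.371, 0.354, 0.280 and 0.340 times the 75th percentile, against 0.355, 0.418, 0.353 and 0.382 times in control rats. CCH rat 3 was the lowest and control rat 2 the highest, and the groups overlapped. The log2 difference was −0.17 ± 0.11 (SE), and −0.08 without CCH rat 3.

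The NEUROD factors pair with E proteins, the broadly expressed bHLH factors, to bind DNA. Neurod1 supports the maturation and survival of granule neurons, while Neurod2 and Neurod6 act in the differentiation and wiring of pyramidal neurons. The stretches before their start sites are shown for their E-boxes, in capitals: 1 in Neurod1, 3 in Neurod2 and 4 in Neurod6. All run 5′ to 3′ on the minus strand of GRCr8 and come from RefSeq, at chr3:84770455-84770704 for Neurod1, chr10:83824278-83824527 for Neurod2 and chr4:86180156-86180405 for Neurod6.
Neurod1: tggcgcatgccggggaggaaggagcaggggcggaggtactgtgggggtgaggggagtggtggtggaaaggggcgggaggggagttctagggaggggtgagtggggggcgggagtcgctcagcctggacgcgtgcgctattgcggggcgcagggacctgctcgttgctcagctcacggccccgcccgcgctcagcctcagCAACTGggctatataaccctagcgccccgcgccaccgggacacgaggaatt
Neurod2: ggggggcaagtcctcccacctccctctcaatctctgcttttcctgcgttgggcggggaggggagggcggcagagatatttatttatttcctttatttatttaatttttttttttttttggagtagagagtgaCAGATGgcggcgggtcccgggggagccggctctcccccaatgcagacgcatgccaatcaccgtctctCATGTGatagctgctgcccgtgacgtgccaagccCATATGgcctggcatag
Neurod6: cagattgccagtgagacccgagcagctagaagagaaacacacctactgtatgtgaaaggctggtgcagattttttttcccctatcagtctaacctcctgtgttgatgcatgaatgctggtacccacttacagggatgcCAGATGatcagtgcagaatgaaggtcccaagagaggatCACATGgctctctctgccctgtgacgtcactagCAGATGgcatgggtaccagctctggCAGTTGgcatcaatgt
CAGATG, an E-box that NEUROD dimers are known to bind, occurred once before Neurod2, beginning 118 bases before the start, and at 112 and 41 bases before the start of Neurod6. At least 1 CAGATG on either strand was held by 4673 of the 33469 promoter windows and at least 2 by 403 of them, while at least 3 CANNTG were held by 11.5% and at least 4 by 3.2%. The same window held 1 E-box for Pcp4, CAGGTG at 81 bases before the start, and 0 for Trpc6.

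Neurod1 read 2.09, 1.38, 1.39 and 1.51 times the 75th percentile in CCH rats and 0.970, 1.31, 1.51 and 1.28 times in control rats. CCH rat 1 was the highest of all and control rat 1 the lowest, with the other 6 rats between 1.28 and 1.51. The log2 difference in Neurod1 was 0.32 ± 0.18 (SE), and it was 0.19 without CCH rat 1, 0.20 without control rat 1 and 0.17 with array weights. Neurod2 read 13.7, 14.5, 12.04 and 12.4 times the 75th percentile in CCH rats and 10.7, 12.7, 10.8 and 12.1 times in control rats, a log2 difference of 0.18 ± 0.10 (SE). Neurod6 read 5.42, 6.29, 6.52 and 5.13 times in CCH rats and 5.13, 5.76, 4.85 and 5.27 times in control rats, a log2 difference of 0.15 ± 0.11 (SE), which came to 0.09 without CCH rat 3. For Neurod2 and for Neurod6, 2 CCH rats lay above every control rat and the other 2 within the control range.

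Across the 7 genes, 6 were higher on average in CCH rats and 1 was lower, with a median log2 difference of 0.15, and 55.1% of all 31617 tested probes were higher in CCH rats with a median of 0.03. None of the 7 passed an adjusted p of 0.05 in limma's test over all tested probes, which called 55 probes (0.174%), 24 of them higher (0.0759%) and 31 lower (0.098%) in CCH rats. At an unadjusted p under 0.05 the count was 1, Wfs1, against 15.4% of all tested probes. The groups did not overlap for 1 of the 7, again Wfs1, and for 11.3% of all tested probes, 6.59% with CCH rats higher and 4.7% with CCH rats lower. Since the genes were chosen with this contrast in view, nothing is read from these counts.

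Other genes of the same fields were described from fixed marker lists. Of the subfield and excitatory lists without the 7 genes, 22 genes were tested on their brightest probe: 18 were higher and 4 lower on average in CCH rats. None passed limma's adjusted test, and 1 had an unadjusted p under 0.05. That gene was Rgs14, a regulator of G-protein signalling that restrains synaptic plasticity in mouse CA2 neurons. Rgs14 read 8.82, 8.99, 8.16 and 8.58 times the 75th percentile in CCH rats, against 6.17, 8.15, 7.35 and 5.16 times in control rats. The CCH rats lay close together and just above the highest control rat, control rat 2, at a log2 difference of 0.39 ± 0.14 (SE; limma adjusted p = 0.253).

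In the CA1 list 4 of 5 genes were tested, Wfs1 among them. Their median log2 difference was 0.40 (0.23 with normexp), and 3 of them were higher on average in CCH rats. Without Wfs1 the median was 0.34, with 2 genes higher and 1 lower. Pou3f1, a POU-domain transcription factor of CA1 neurons, read 1.31, 2.48, 2.43 and 2.43 times the 75th percentile in CCH rats and 1.33, 1.74, 1.64 and 1.39 times in control rats. CCH rat 1 lay just below the lowest control rat and the other CCH rats above all control rats. The log2 difference was 0.47 ± 0.22 (SE; limma adjusted p = 0.357), and without CCH rat 1 it was 0.69 (adjusted p = 0.0397). The summed level of the CA1 list was 7.46 to 8.69 in CCH rats and 4.35 to 6.09 in control rats, a sum that includes Wfs1. The mean of its log2 levels overlapped between the groups.

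The CA2, CA3 and dentate lists had smaller medians, 0.10, 0.11 and 0.12, over 4, 4 and 5 tested genes. The CA3 median was −0.01 with normexp, the CA2 median 0.04 without control rat 3 and the dentate median 0.04 without CCH rat 4. Over all 8 rats, the CA2 median was 0.11 without Pcp4, and the dentate median 0.16 without Prox1 and Trpc6. Grik4, a kainate receptor subunit of CA3 neurons, differed by 0.16 ± 0.18 (SE), by 0.04 without control rat 3 and by 0.30 without CCH rat 1. Bok, a BCL2 family member, differed by 0.14 ± 0.10 (SE), and by 0.09 without CCH rat 1 or without control rat 4. Calb1, the calcium buffer calbindin of granule and superficial CA1 neurons, differed by 0.18 ± 0.11 (SE; limma adjusted p = 0.496), and by 0.10 without CCH rat 4. Pdyn, the precursor of the dynorphin peptides in mossy fibres, was singled out after its values were seen: it read 7.96, 15.7, 14.3 and 29.9 times the 75th percentile in CCH rats and 11.2, 14.2, 13.9 and 15.5 times in control rats. Both the lowest and the highest Pdyn values were in CCH rats. Of the pan-excitatory list 12 of 15 genes were tested, with 10 higher and 2 lower on average and a median of 0.15. Without the NEUROD factors 7 were higher and 2 lower, with a median of 0.14. Its leading genes beside the NEUROD factors were Hpca, the calcium sensor hippocalcin, at 0.28 ± 0.14 (SE; adjusted p = 0.376), and Chn1, the RAC GTPase-activating protein chimaerin, at 0.23 ± 0.11 (SE; adjusted p = 0.352).

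**Figure D2:**
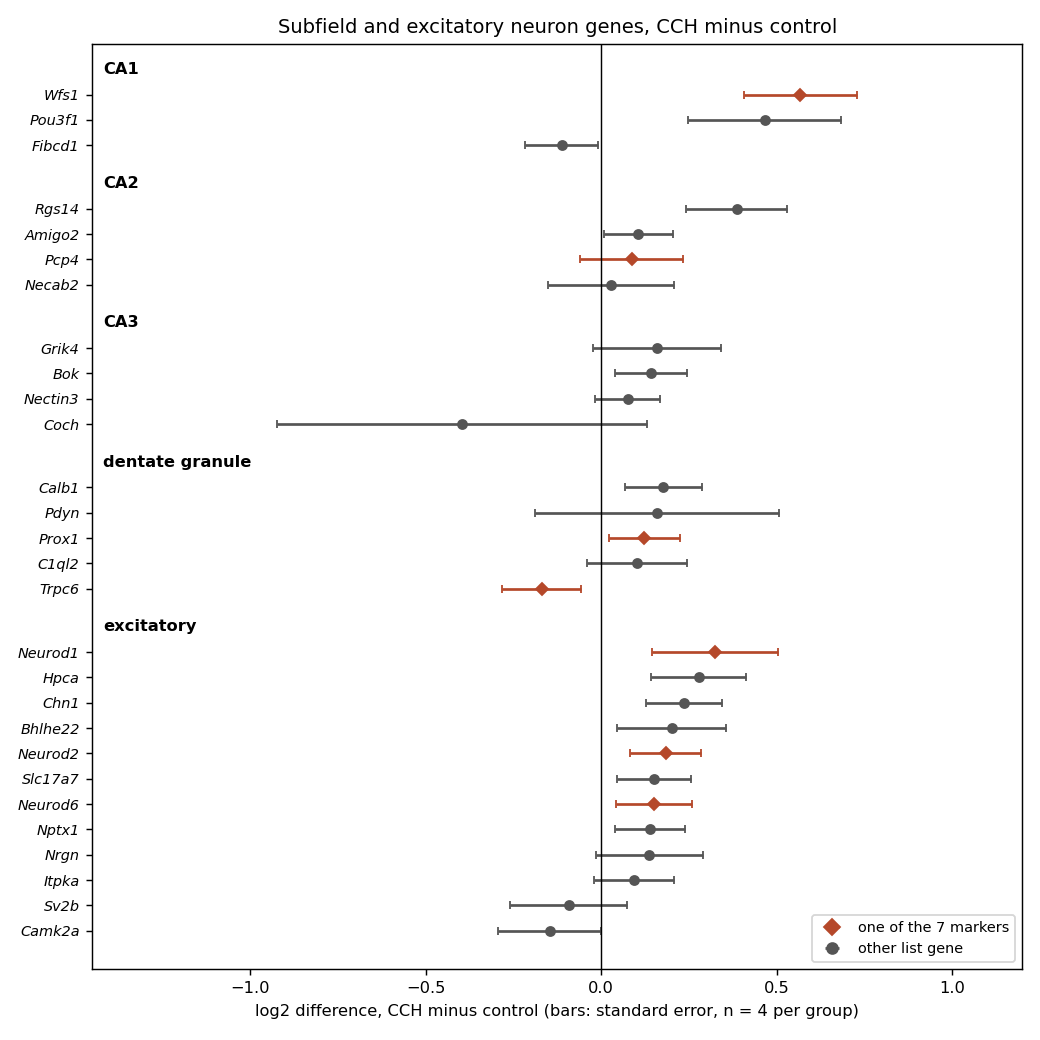
Log2 difference, CCH minus control, of tested genes of the CA1, CA2, CA3, dentate granule and pan-excitatory lists, with the standard error (n = 4 per group). Diamonds are the 7 described genes and circles the other list genes. Most points lie right of 0, with Wfs1 farthest right at 0.57, and Trpc6 and Coch are the points left of 0 in the dentate and CA3 lists.

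The bHLH list held E proteins, ID inhibitors, HES repressors and relatives of the NEUROD factors. Of 14 genes 10 were tested, 4 higher and 6 lower on average in CCH rats, with a median of −0.06, which was −0.004 with array weights and −0.01 without CCH rat 1. By limma 0 were called and 2 had an unadjusted p under 0.05. The E proteins Tcf12 and Tcf4, which pair with NEUROD factors, had the smallest p. Tcf12 read 1.76, 1.37, 1.24 and 1.10 times the 75th percentile in CCH rats, against 2.54, 1.98, 2.31 and 2.10 times in control rats. Tcf4 read 31.9, 42.1, 38.4 and 38.2 times in CCH rats, against 50.6, 60.7, 50.4 and 47.3 times in control rats. Every CCH rat lay below every control rat for both genes, at log2 differences of −0.72 ± 0.16 for Tcf12 (SE; limma adjusted p = 0.0853) and −0.47 ± 0.12 for Tcf4 (SE; adjusted p = 0.121). Without CCH rat 1, Tcf12 differed by −0.85 (adjusted p = 0.0353), in a run that called 733 probes in all. Without CCH rat 4 it differed by −0.62.

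TRPC channels and the store-operated entry genes, which refill calcium stores, were tested for 7 of 10 genes. On the brightest probe of each, 6 were higher and 1 lower on average. By limma 0 were called and 1 had an unadjusted p under 0.05. That gene, Stim2, a sensor of endoplasmic reticulum calcium, read 0.748, 0.764, 0.727 and 0.551 times the 75th percentile in CCH rats and 1.06, 0.992, 0.959 and 0.896 times in control rats. The groups did not overlap on that probe, at a log2 difference of −0.49 ± 0.12 (SE; limma adjusted p = 0.119). A dimmer Stim2 probe differed by 0.24 ± 0.18 (SE), in the other direction. Dimmer probes of Stim1 and Itpr1, both counted among the higher genes, also went against the brightest probe. They differed by −0.48 ± 0.09 and −0.26 ± 0.18 (SE; limma adjusted p = 0.0681 and 0.544). Trpc5, a channel related to Trpc6, differed by 0.25 ± 0.11 (SE; adjusted p = 0.333), and by −0.03 with normexp background correction.

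Calmodulins and small IQ-motif calmodulin binders, Pcp4 with its partners and relatives, were tested for 7 of 7 genes. Of these, 5 were higher and 2 lower, with a median of 0.09, 0 called by limma and 0 at an unadjusted p under 0.05. Without Pcp4 itself 4 were higher and 2 lower, with a median of 0.07. Calm3, which encodes calmodulin, differed by 0.14 ± 0.09 (SE; limma adjusted p = 0.519), and Pcp4l1, the closest relative of Pcp4, by −0.19 ± 0.21 (SE; adjusted p = 0.710). Without 1 rat the Pcp4l1 difference lay between −0.31 (without control rat 2) and −0.07 (without control rat 1, and also without CCH rat 1), and the list's median came to 0.01 without control rat 1. For the endoplasmic reticulum partners of WFS1, 6 of 11 genes were tested, 3 higher and 3 lower, with 0 called by limma and 2 at an unadjusted p under 0.05. Atf6, the stress sensor whose turnover WFS1 regulates, was 1.07, 1.10, 1.53 and 1.60 times the 75th percentile in CCH rats and 1.42, 2.01, 2.16 and 2.21 times in control rats, with 1 control rat inside the CCH range. Its log2 difference was −0.56 ± 0.19 (SE; adjusted p = 0.223). Atf4, a transcription factor of the integrated stress response, differed by −0.27 ± 0.10 (SE; adjusted p = 0.258), and its groups did not overlap. Eif2ak3 and Hspa5 of the same list, named after their values were seen, went the other way. They differed by 0.19 ± 0.10 and 0.22 ± 0.11 (SE; adjusted p = 0.400 and 0.367), and the Eif2ak3 groups did not overlap either.

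**Figure D3:**
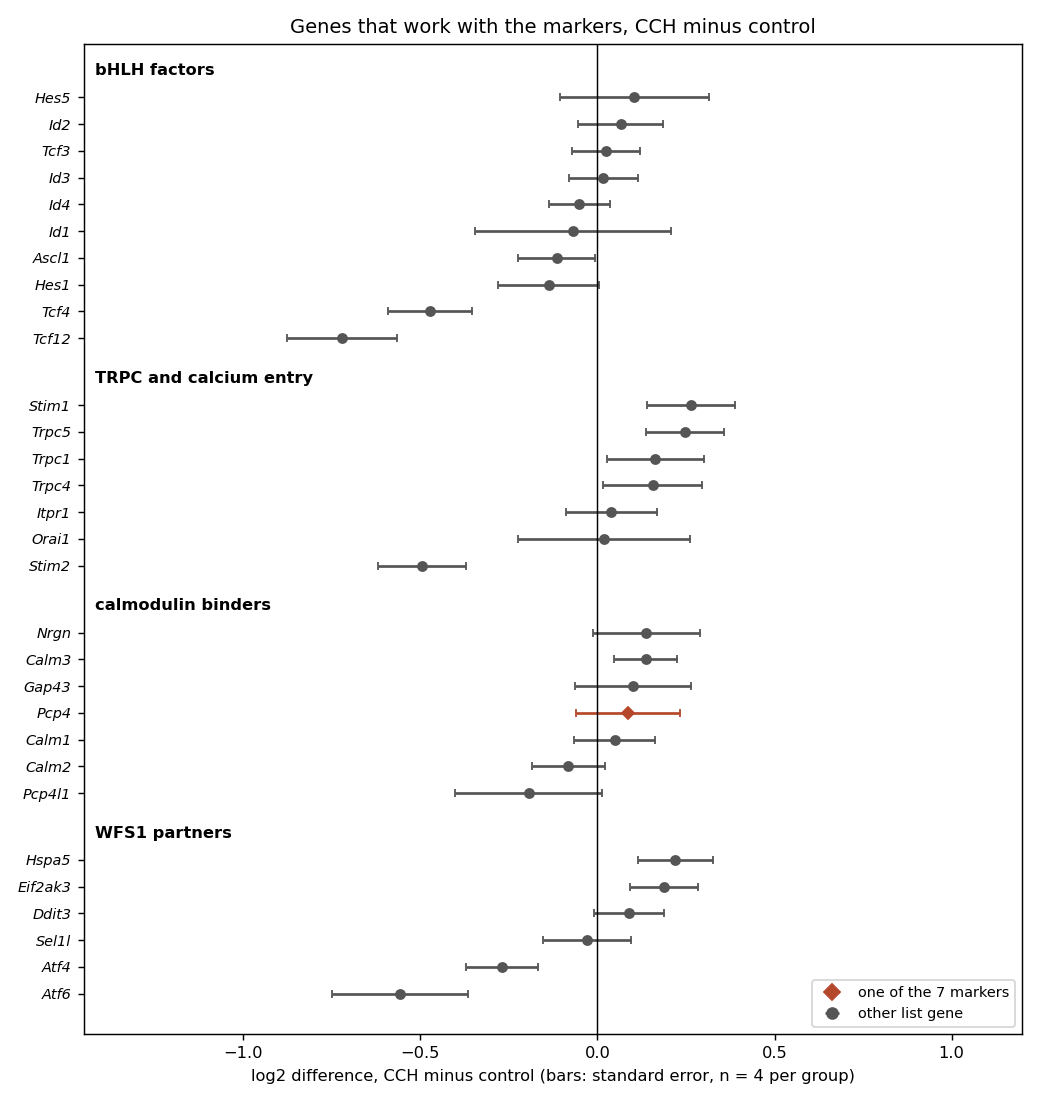
Log2 difference, CCH minus control, of each tested gene of 4 lists that belong with the markers: bHLH factors, TRPC channels and calcium entry, calmodulin binders, and endoplasmic reticulum partners of WFS1. Bars are standard errors (n = 4 per group), and the diamond is Pcp4. Tcf12 at −0.72, Atf6 at −0.56, Stim2 at −0.49 and Tcf4 at −0.47 lie farthest left.

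Variation between rats of the same diet was not used to choose the 7 genes, so it was tested. Each rat's deviation from its group mean was correlated for all 21 pairs of genes, by an exact two-sided permutation within groups over 576 orders. Trpc6 and Neurod2 varied most closely together, with r = 0.83 (exact p = 0.0208, adjusted 0.438) and rho = 0.86 (exact p = 0.0278, adjusted 0.365) over 8 rats. The r was 0.77 within CCH rats, 0.97 within control rats, and 0.78 without CCH rat 3 and control rat 2. Of all other tested probes 2.02% reached that r with Trpc6 and 0.888% with Neurod2. Prox1 and Trpc6, both granule neuron markers, had r = 0.72 (exact p = 0.0486, adjusted 0.510) and rho = 0.81 (exact p = 0.0347, adjusted 0.365), and r was 0.38 without CCH rat 1 and control rat 2. Wfs1 and Pcp4 had r = −0.64 (exact p = 0.144, adjusted 0.757) and rho = −0.57 (exact p = 0.130, adjusted 0.911), and r was −0.59 without CCH rat 2 and control rat 4. No pair passed after adjustment over the 21 pairs.

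**Figure D4:**
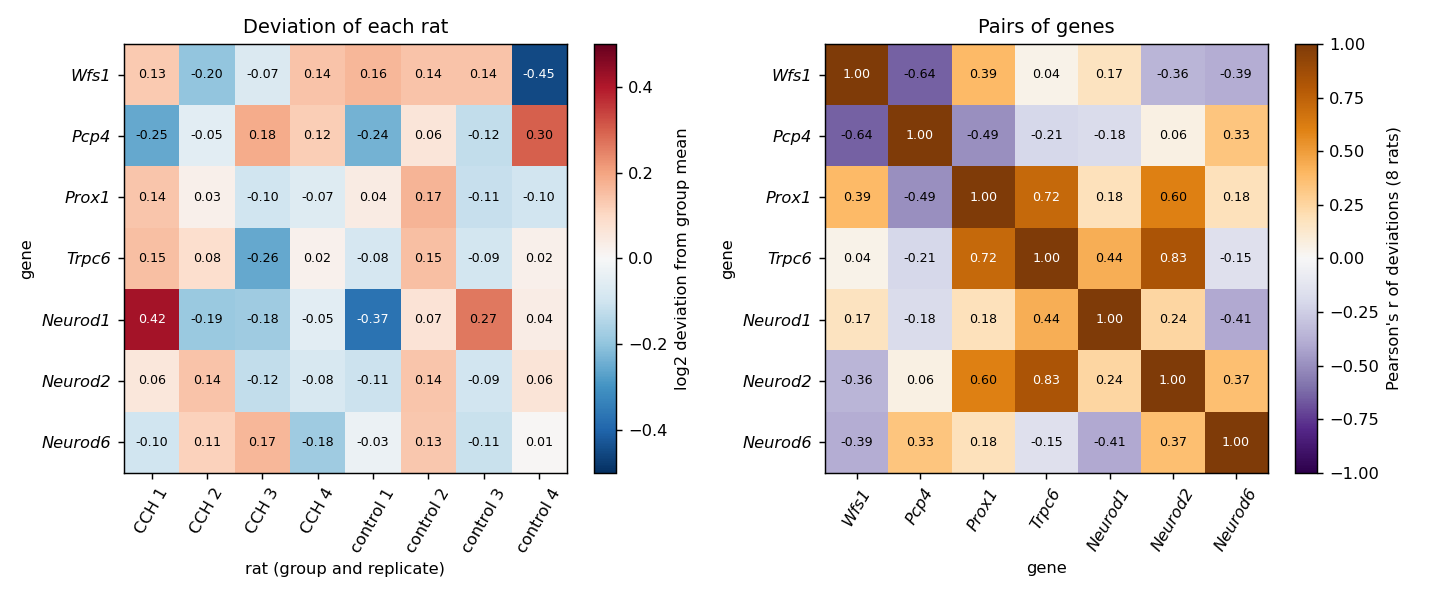
Left, log2 deviation of each rat from its group mean for the 7 genes, with colour from −0.5 to 0.5. Right, Pearson's r of these deviations for each pair of genes over 8 rats. Wfs1 deviates most in control rat 4, at −0.45, and Neurod1 most in CCH rat 1, at 0.42, while Trpc6 and Neurod2 share the highest r, 0.83.

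By the same measure, the named genes whose deviations were most like those of Wfs1 were Scn4b, a sodium channel subunit (r = 0.97), Fst, the activin-binding protein follistatin (r = 0.96), H2az2, a variant histone (r = 0.94), Car5b, a mitochondrial carbonic anhydrase (r = 0.94), and Phkg2, a phosphorylase kinase subunit (r = 0.93). For Neurod6 they were Rbm28, an RNA-binding protein (r = 0.99), Plac9 (r = 0.97), Mog, a myelin glycoprotein (r = 0.96), F8, coagulation factor VIII (r = 0.96), and Cnp, a myelin phosphodiesterase (r = 0.95). They are the 5 highest of 11881 probes over 8 rats that share 2 slides, so they are a description with no p.

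Markers of neighbouring tissue and of other cells were measured beside the 7 genes. On the brightest probe of each gene, all 10 oligodendrocyte genes were higher on average in CCH rats, with a median of 0.40, and 6 had an unadjusted p under 0.05 but 0 were called by limma. Their summed level was 303 to 402 in CCH rats and 279 to 337 in control rats, and the mean of their log2 levels did not overlap between the groups. Mal, a myelin membrane protein, and Ugt8, which makes galactosylceramide, had the smallest adjusted p of all list genes, 0.0529 each, at log2 differences of 0.68 ± 0.10 and 0.78 ± 0.12 (SE). With normexp Ugt8 differed by 0.34 (adjusted p = 0.136). Second probes of Mobp, another myelin protein, and of Opalin differed by −0.11 ± 0.12 and −0.06 ± 0.12 (SE), against the direction of the brightest probes, while those of Mbp and Mog were higher by 0.36 and 0.35. All 10 choroid plexus and ependyma genes tested were lower on average, with a median of −2.07, 0 called by limma and 0 at an unadjusted p under 0.05, and their summed level was 8.88 to 228 in CCH rats and 50.7 to 301 in control rats. CCH rats 2 and 4 held the least of it, and the median was −1.20 without the first of them, −1.21 without the other and −1.23 with normexp. The part of these lists in the differences of the 7 genes was not tested.

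Lists of adjoining tissue and of other cells are given by their summed levels. The means of their log2 levels overlapped between the groups for each of these lists, microglia included. The summed level of striatum markers, 8 of 8 tested, was 6.61 to 8.87 in CCH rats and 6.49 to 7.41 in control rats. That of neocortex and subiculum markers, 4 of 9 tested, was 14.8 to 24.1 in CCH rats and 21.1 to 28.8 in control rats. Thalamus and habenula markers, 4 of 8 tested, summed to 4.14 to 7.85 in CCH rats and 4.41 to 8.24 in control rats, and Gpr151, a habenula marker, was well above background on 0 of 8 arrays. Interneuron markers, 7 of 9 tested, summed to 32.9 to 37.3 in CCH rats and 32.7 to 36.9 in control rats. Meninges and fibroblast markers, 7 of 7 tested, summed to 24.3 to 75.9 in CCH rats and 15.4 to 188 in control rats, and endothelium and pericyte markers, 8 of 8 tested, to 24.9 to 28.1 in CCH rats and 22.5 to 29.5 in control rats. Astrocyte markers, 8 of 9 tested, summed to 104 to 123 in CCH rats and 105 to 121 in control rats. On average 5 were higher and 3 lower in CCH rats, with 0 called by limma and 2, both higher, at an unadjusted p under 0.05. Microglia markers, 10 of 10 tested, summed to 32.7 to 43.85 in CCH rats and 43.86 to 49.7 in control rats, with 8 lower and 2 higher on average, 0 called by limma and 3 at an unadjusted p under 0.05.

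Deviations of the 7 genes were set against 10 such lists, 70 relations in all, by the same exact permutation. The smallest p were for Pcp4, with endothelium and pericyte markers at r = −0.87 and rho = −0.79 (exact p = 0.0174 and 0.0382, both adjusted to 0.790), and with oligodendrocyte markers at r = 0.84 and rho = 0.81 (exact p = 0.0226 and 0.0347, both adjusted to 0.790). Without control rats 1 and 4 the endothelial relation had r = −0.74. Without CCH rat 1 and control rat 1 the oligodendrocyte relation had r = 0.58. High r of a lesser size was frequent for Pcp4: 24.0% of 31541 other probes had an absolute r over 0.7 with it. The share that reached 0.84 or 0.87 was not computed. For the other genes of the 7 that share was 3.19% to 13.4%. Wfs1 ran against the oligodendrocyte list between rats of the same diet, with r = −0.67 and rho = −0.62 (exact p = 0.0885 and 0.0451, adjusted 0.958 and 0.790), and r = −0.68 without CCH rat 1 and control rat 1. No relation passed after adjustment. With 70 relations the orders were too few for a lone relation to pass, whatever its r or rho, so nothing is concluded from this outcome.

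**Figure D5:**
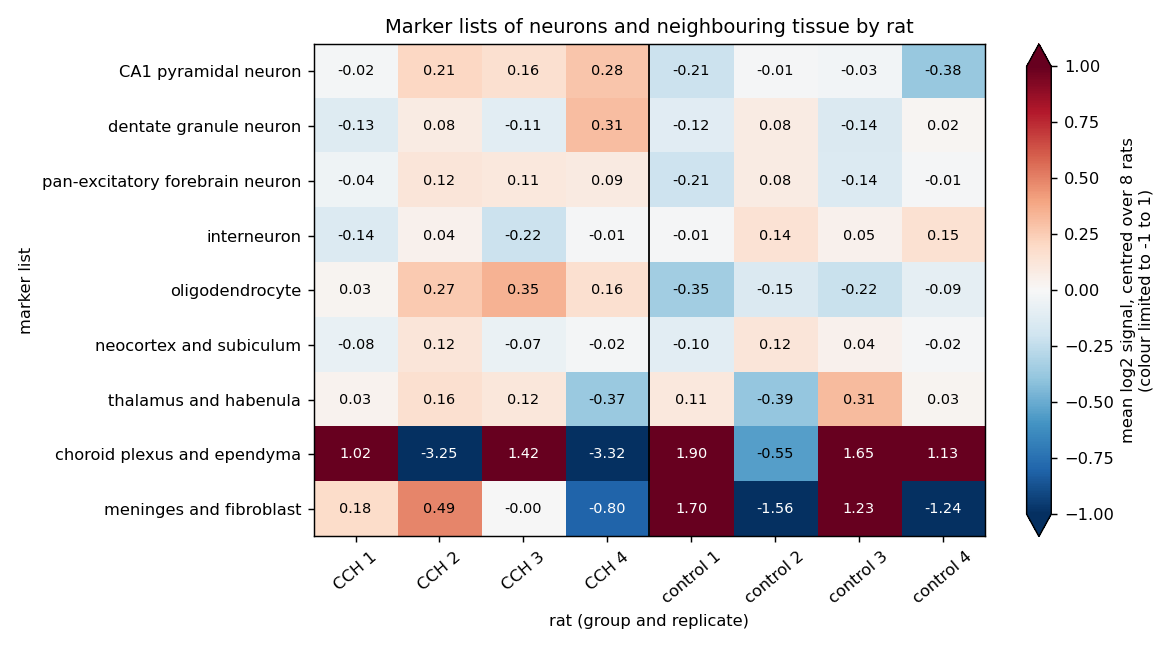
Mean log2 signal of selected marker lists in each rat, centred over the 8 rats. CCH rats are left of the line and control rats right of it. The CA2, CA3, striatum, astrocyte, microglia and endothelium lists are not drawn. Colour stops at −1 and 1. CCH rats 2 and 4 are lowest for choroid plexus and ependyma, at −3.25 and −3.32, and the oligodendrocyte row is positive in every CCH rat and negative in every control rat.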

How the data were processed

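The 7 genes and all marker and pathway lists were chosen with earlier results of these data known. Per the submitters' processing notes, spot intensity was extracted with Agilent Feature Extraction 9.5, and per the file headers the scanner software subtracted background and spatial trend to give the deposited processed signal, a linear intensity not scaled between arrays. The series' table of values matches it within rounding (largest relative difference 0.00498) and was not used as a second source.

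Titles and treatment labels gave the groups. Free-text descriptions contradict them and were not used: they speak of hemiparkinsonian rats given saline or, for CCH arrays 3 and 4, L-DOPA, and would put all CCH arrays and control array 4 on the lesioned side and control arrays 1 to 3 on the other. Each array held a different rat, so limma's p-values set the difference between groups against the spread between arrays of a diet. That spread joins variation of rats and of arrays, and each diet had 1 slide.

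The log2 of the intensity deposited by the authors was taken, and the 75th percentile of the array's spots, controls left out, was subtracted. Outlier-marked spots (55 to 122 per array) were set to missing. Probes well above background on at least 4 of 8 arrays, with at least 3 values per group, were tested: 31617 of 41012. limma 3.58.1 in R 4.3.3 (lmFit, eBayes, two-sided) was used with p-values adjusted by Benjamini-Hochberg over the tested probes (threshold 0.05). RefSeq accessions were named through a GRCr8 table, which matched 15184 probes (37.0%). The array grid is of the older assembly rn4, so no probe coordinates are given. Promoter windows, of GRCr8, were matched by symbol for 6 of the 7 genes; the table held none for Prox1. A list gene was represented by its brightest probe.

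Named genes were the 7 genes, from each list every called gene and otherwise the 2 with the smallest unadjusted p, and for Wfs1 and Neurod6 the 5 genes with the most similar deviations. Some list genes are not reported here, although counts, medians and sums include them. The scripts were tested on simulated data with known changes. In all, 17 alternatives were tried. The deposited columns used here held no mean signal, so normexp (offset 50) was run on the median signal and median background. Slide and scan blocks equal the diet term and were not run.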

Additional observations from a re-analysis of the deposited data

Results flagged for a closer look

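In control rats the Wfs1 value of rat 4 stood apart: its log2 level over the 75th percentile was 1.40, while the other control rats lay between 2.00 and 2.02. The difference between CCH and control rats was 0.42 without that rat and 0.57 with it. The mean log2 level of the striatum markers stood apart in control rat 2, at −0.42, with the other control rats between 0.14 and 0.24. Both passed Dixon's test for 4 values at the 95% level. Chance gives such a value in about 1 in 20 groups of 4. Here it occurred in 1 of 14 groups checked for the 7 genes and in 1 of 38 groups checked for the list means.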

How the results depend on the processing

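None of the 7 genes passed limma's adjusted test under any of the 17 alternatives. No pair of them passed on r after adjustment in the 12 alternatives in which pairs were recomputed. Where 1 rat was left out, the orders were too few for a lone pair to pass, whatever its r. Wfs1 differed by 0.42 (without control rat 4) to 0.63 (without CCH rat 2), with adjusted p from 0.0880 to 0.322. The signs of the 7 differences held under every alternative, apart from Prox1, at −0.03 with normexp. Trpc5 was reversed to −0.034 with normexp. The count of called probes, 55 (24 higher, 31 lower), was less stable: 246 with normexp (69 higher, 177 lower), 29 with no detection filter, 209 with detection on all 8 arrays, 1339 with array weights (743 higher, 596 lower) and 220 with trend and robust eBayes. It was 0 with the replicate block, with 4966 probes at an unadjusted p under 0.05. Leaving out 1 rat gave 0 to 733, and CCH rat 1 is the rat without which 733 were called (420 higher, 313 lower). Where the count without 1 rat was 0, 3664 to 4506 probes had an unadjusted p under 0.05. List genes called, 0 as reported, were 3 with normexp, 2 with detection on all 8 arrays, 8 with array weights, 3 with trend and robust eBayes, and 0 to 5 without 1 rat. Of the neuron and pathway genes, these were Pou3f1 and Tcf12 without CCH rat 1 and with array weights, and Reln with array weights; the others were oligodendrocyte genes. The cause was not tested. Deviations of same-numbered rats correlated at 0.15, 0.08, −0.01 and 0.25, and those of differently numbered rats at −0.38 to 0.44. On both slides the replicate number equals the array's position, so a pairing of rats and a shared position cannot be told apart. Neither was tested.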

Other observations

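Further second probes are given here. Reln, the extracellular guide of neuronal layering made by Cajal-Retzius cells and interneurons, read 2.52, 3.18, 3.54 and 2.49 times the 75th percentile in CCH rats and 5.61, 3.99, 5.66 and 4.94 times in control rats. No CCH rat reached the lowest control rat, at a log2 difference of −0.79 ± 0.16 (SE; limma adjusted p = 0.0770). The other Reln probe differed by 0.49 ± 0.35 (SE; adjusted p = 0.565). Stim1 differed by 0.26 ± 0.12 (SE; adjusted p = 0.358) on its brightest probe and by −0.48 ± 0.09 (SE; adjusted p = 0.0681) on a dimmer one. Chn1 differed in the same direction on both probes, by 0.23 and 0.32. Slc17a6, the vesicular glutamate transporter of thalamic and brainstem neurons, differed by 0.50 ± 0.20 (SE; adjusted p = 0.278), and by 0.31 with array weights. Stim1 and the second probes were singled out after their values were seen.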
